A study of Mus musculus with 6 samples.

Results

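The proteasome genes described here are the protein-coding genes whose symbol begins with Psma, Psmb, Psmc, Psmd, Psme, Psmf or Psmg followed by a number. The rule found 50 genes among the 49315 identifiers of the count table, and 49 of them passed the filter on low counts and were tested among 16956 genes. The remaining member, Psmb11, which encodes the catalytic subunit of the thymus proteasome, had 0 counts in all 6 libraries, which allows at most 0.0743 to 0.0886 CPM (counts per gene scaled to a common library size) per library. Of the 50 genes 5 belong to the immunoproteasome (Psmb8, Psmb9, Psmb10, Psme1 and Psme2), 31 are constitutive subunits of the core, base and lid, and 14 are other members, among them activators, an inhibitor and assembly chaperones. Psmc3ip, a factor of meiotic recombination, and Psme2b, a copy of Psme2, matched by symbol only, and 4 pseudogenes with between 0 and 7 counts over all libraries were left out.

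The proteasome is the large protease that degrades proteins marked with ubiquitin. Its barrel, the 20S core, is built of alpha rings that form the gate and beta rings that hold the catalytic sites, and the 19S particle on its end binds, unfolds and feeds in the substrate. Cells exposed to interferon, and most blood-forming and immune cells, replace the catalytic beta subunits by immunosubunits, which favour the cutting of peptides for display on MHC class I. Other caps, such as PA28, can open the same gate without ubiquitin.

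Messenger RNA was measured in mouse bone marrow after feeding of the HFSC diet, named as in the labels, and after hindlimb ischemia, a block of the blood flow to a leg. The control group (WT, replicates 1, 3 and 4) carried the floxed locus miR-181a2b2flox/flox, and the other group (KO, replicates 2, 3 and 4) was miR-181a2b2-/-; the labels name no promoter or cell type for a Cre. Diet and ischemia were common to both groups, so no library shows the proteasome genes without them, and the labels used here state neither age nor sex. They also do not say whether replicates stem from different animals, so each p-value reflects the variation among these 6 libraries, which may be technical.

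The libraries held between 33861440 counts (KO replicate 2) and 40359093 counts (WT replicate 4). Bone marrow is the labelled source, while the text on RNA extraction speaks of white adipose tissue. Of 6 adipocyte markers 3 (Plin1, Cidec and Lep) were at 0 in at least 1 library, and the summed level of the list was 17.1 to 26.5 CPM in WT and 24.1 to 40.1 CPM in KO, against 40994 to 53153 CPM and 61471 to 75682 CPM for 10 late neutrophil markers. Xist, transcribed in female cells, was above 1 CPM in WT replicates 3 and 4 and in KO replicate 2, so the groups were not balanced in this respect. KO replicate 4 stood apart for the proteasome: 42 of the 49 tested members had their highest level there, including 14 of 14 subunits of the constitutive 20S core. Proteasome genes took 0.440%, 0.387% and 0.400% of all counts in WT replicates 1, 3 and 4, and 0.422%, 0.421% and 0.479% in KO replicates 2, 3 and 4.

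The deleted locus encodes the microRNAs miR-181a and miR-181b, which pair with messenger RNAs through their seed, bases 2 to 8. Both mature sequences are shown from RefSeq (GRCm38.p6, chromosome 2, plus strand) with the seed in capitals, because the seed is what any direct contact with a proteasome transcript would use. The first lies at chr2:38852741-38852763 and the second at chr2:38853845-38853868, and their seeds are identical.
miR-181a-5p: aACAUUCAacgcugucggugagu
miR-181b-5p: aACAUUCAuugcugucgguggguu

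In the comparison of KO with WT none of the 49 tested proteasome genes passed the threshold in either direction (edgeR quasi-likelihood test, Benjamini-Hochberg adjusted p under 0.05 over all genes), while 2.46% of all tested genes did. The members nevertheless lay to one side. A log2 fold change (KO minus WT) above 0 was found for 43 of 49 members, against 48.9% of all tested genes, and the median was 0.22 in the members and -0.01 in all genes. An unadjusted p under 0.05 was reached by 22 members in the direction of higher KO levels (11.7% of all genes) and by 2 in the direction of lower KO levels (12.2% of all genes). All 3 KO libraries lay above all 3 WT libraries for 20 members (14.4% of all genes) and below them for 2 members, Psmf1 and Psme4 (14.7% of all genes).

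The calls depended on the tool. DESeq2 called 6 members higher, Psma7, Psmb10, Psmb3, Psmb4, Psmb8 and Psme2 (5.05% of all genes), and 1 member lower, Psmf1 (4.62%). edgeR without a filter on low counts called the same 6 and Psmb9 higher (2.15% of all genes) and Psmf1 lower (2.76%). limma called Psmb3 alone (2.07% of all genes higher).
Without KO replicate 4 the median of the members was 0.13, 39 of 49 were above 0 (50% of all genes) and 6 had an unadjusted p under 0.05 with a higher KO level (6.99%). This number was also 6 without WT replicate 4 (7.96% of all genes) and 9 without WT replicate 3 (10.1%). The other 3 omissions raised it from 22. It was 26 when WT replicate 1 was dropped, 27 for KO replicate 2 and 25 for KO replicate 3. The medians of the members were then 0.30, 0.28 and 0.28, and the shares of all genes were not counted. With library totals in place of TMM scaling 38 of 49 were above 0 (39.5% of all genes) and the median was 0.14 against -0.08 for all genes. With Xist above 1 CPM as a covariate the median of the members was 0.16 against -0.01 for all genes. In that fit 15 members had an unadjusted p under 0.05 with a higher KO level, and the share of all genes was not counted.

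**Figure D1:**
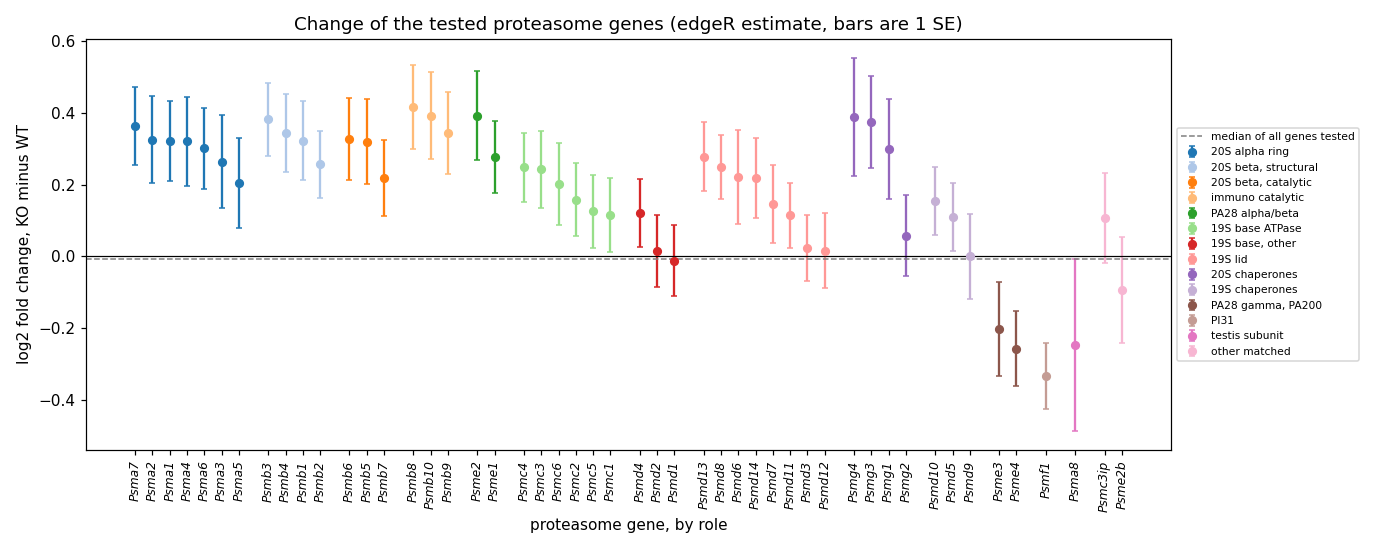
Fitted log2 fold change (KO minus WT, vertical axis) of each of the 49 tested proteasome genes (horizontal axis), grouped and coloured by role, with bars of 1 SE and the median of all tested genes as a dashed line. The core, immunoproteasome and chaperone genes have values above 0 (Psmd9 at 0.00), and Psme3, Psme4, Psmf1, Psma8, Psme2b and Psmd1 have values below it.

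The alpha ring gates the barrel. Its 7 constitutive genes, Psma1 to Psma7, had log2 fold changes between 0.20 and 0.36 with a median of 0.32, and the KO libraries lay above the WT libraries for 5 of them (14.4% of all genes). Psma7, at the upper end, lay at 128, 118 and 113 CPM in WT replicates 1, 3 and 4 and at 142, 142 and 177 CPM in KO replicates 2, 3 and 4. Every KO library was above every WT library, and the fitted change was 0.36 ± 0.11 (SE, edgeR adjusted p = 0.0963). Psma5, at the lower end, lay at 74.7, 57.9 and 63.9 CPM in WT and 68.2, 70.3 and 87.7 CPM in KO, so the groups overlapped through WT replicate 1. Psma8, the alpha subunit of the testis, was barely present: it lay at 1.94, 1.33 and 1.48 CPM in WT and 1.28, 1.45 and 1.25 CPM in KO, and the groups overlapped.

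The 4 structural beta subunits, Psmb1 to Psmb4, have no protease site. They had a median log2 fold change of 0.33, and all 4 were higher in every KO library than in any WT library (14.4% of all genes). Psmb3 (chromosome 11, 97703399 to 97713500, plus strand) had the smallest adjusted p of all members. It lay at 90.2, 79.3 and 78.6 CPM in WT and at 104, 99.1 and 120 CPM in KO. The means of 82.7 ± 6.53 and 108 ± 10.9 CPM (SD, n = 3 each) gave a log2 fold change of 0.38 ± 0.10 (SE), or 1.30-fold, with a 95% interval from 0.16 to 0.61 (edgeR adjusted p = 0.0746, range over 16 alternatives 0.0175 to 0.259). Psmb2, at the lower end of the group, lay at 65.7, 55.5 and 57.6 CPM in WT and 69.5, 67.4 and 76.6 CPM in KO.

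Psmb5, Psmb6 and Psmb7 encode the catalytic subunits of the constitutive proteasome, with chymotrypsin-like, caspase-like and trypsin-like activity. Psmb5 lay at 60.2, 55.2 and 52.1 CPM in WT and at 60.6, 66.1 and 82.3 CPM in KO (log2 fold change 0.32 ± 0.12, SE, edgeR adjusted p = 0.145). The groups were separate by the narrow gap between WT replicate 1 and KO replicate 2, and KO replicate 4 was well above both other KO libraries. Psmb6 lay at 70.8, 58.7 and 59.8 CPM in WT and at 76.8, 70.6 and 89.98 CPM in KO (0.33 ± 0.11, adjusted p = 0.128). Psmb7 lay at 89.5, 76.1 and 73.4 CPM in WT and at 87.8, 87.1 and 103 CPM in KO (0.22 ± 0.11, adjusted p = 0.245). For both genes WT replicate 1 reached into the KO range. Exons of Psmb7 share 405 bases with Nek6 on the other strand, and reads of such overlapping genes cannot be told apart, because no source used here gives the strand setting of the counting.

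The 14 constitutive core genes thus had a median of 0.32. Their mean level on the log2 scale was set against the WT mean: it was 0.13, -0.07 and -0.06 in WT replicates 1, 3 and 4 and 0.19, 0.19 and 0.51 in KO replicates 2, 3 and 4. The gap between WT replicate 1 and the nearest KO library was small beside the distance of KO replicate 4 from the other KO libraries. Without KO replicate 4 the median of the core was 0.19, all 14 genes remained above 0 (50% of all genes) and 3 of them had an unadjusted p under 0.05 (6.99% of all genes), against 11 with it (11.7%). Without WT replicate 4 this number was also 3 (7.96% of all genes). The core median was 0.37, 0.30 and 0.29 when WT replicate 1, 3 or 4 was dropped. It was 0.37 for omission of KO replicate 2 and 0.38 for omission of KO replicate 3.

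**Figure D2:**
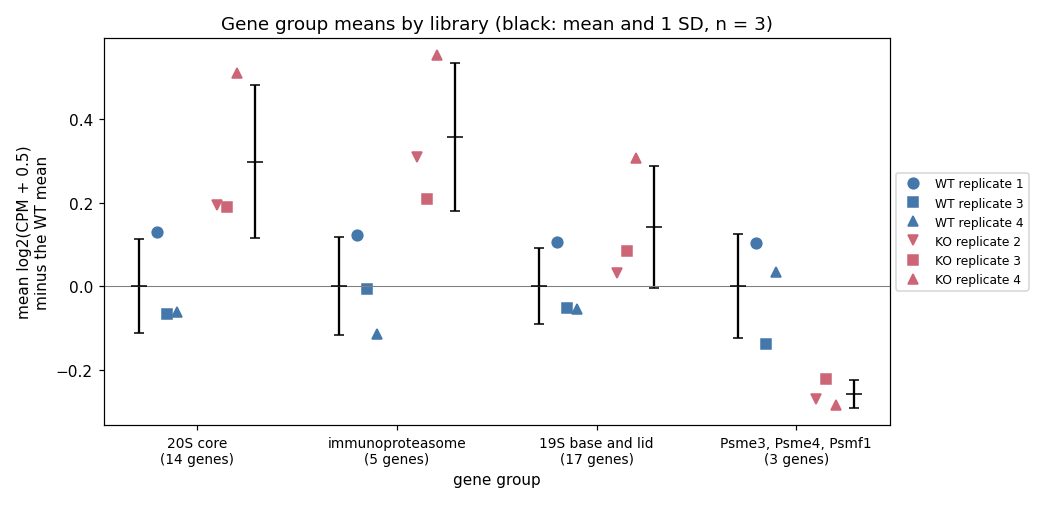
Mean log2(CPM + 0.5) of 4 gene groups in each library, as the difference from the WT mean of the group (vertical axis); symbols are libraries, and black bars give the mean and SD of 3 libraries. KO replicate 4 is the highest library for the 20S core (0.51), the immunoproteasome (0.55) and the 19S base and lid (0.31), and the lowest for Psme3, Psme4 and Psmf1 (-0.28).

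The immunoproteasome genes were the highest group by median log2 fold change among the 4 groups of that plot, at 0.39 for 5 genes, and all 5 were higher in every KO library than in any WT library (14.4% of all genes). Without KO replicate 4 their median was 0.27. Psmb8 (chromosome 17, 34197721 to 34201454, plus strand) encodes the immunosubunit that takes the place of PSMB5. It lay at 105, 92.6 and 86.0 CPM in WT and at 119, 115 and 145 CPM in KO. The means were 94.7 ± 9.88 and 126 ± 16.5 CPM (SD, n = 3 each) and the log2 fold change was 0.42 ± 0.12 (SE), or 1.33-fold, with a 95% interval from 0.16 to 0.68 (edgeR adjusted p = 0.0826, range over 16 alternatives 0.0101 to 0.276). This was the largest log2 fold change of any member, and it missed the threshold. An antisense transcript, Gm20496, shares 498 exon bases with Psmb8.

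Psmb9 (chromosome 17, 34181987 to 34187764, minus strand), which takes the place of PSMB6, lay at 57.7, 59.3 and 50.7 CPM in WT and at 75.6, 59.7 and 77.2 CPM in KO (log2 fold change 0.34 ± 0.11, SE, edgeR adjusted p = 0.118). KO replicate 3 was at the level of WT replicates 1 and 3, so the groups were separate by a narrow margin. Without KO replicate 3 the adjusted p of Psmb9 was 0.0387, within a range of 0.0387 to 0.352 over 16 alternatives, and Psmb9 and Psmb3 were then the members called (1.81% of all genes higher). Psmb9 shares 212 exon bases with Tap1 on the other strand. Psmb10 (chromosome 8, 105935735 to 105938444, minus strand), which takes the place of PSMB7, lay at 53.4, 45.3 and 42.8 CPM in WT and at 57.6, 56.2 and 71.9 CPM in KO (0.39 ± 0.12, adjusted p = 0.102).

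Psme1 and Psme2 encode the alpha and beta subunits of PA28, the interferon-inducible cap of the core, and are counted with the immunoproteasome. Psme1 (chromosome 14, 55578123 to 55581529, plus strand) lay at 123, 112 and 111 CPM in WT and at 140, 125 and 155 CPM in KO (log2 fold change 0.28 ± 0.10, SE, edgeR adjusted p = 0.137). Psme2 (chromosome 14, 55587441 to 55591113, minus strand) lay at 79.4, 72.3 and 67.0 CPM in WT and at 84.2, 88.5 and 114 CPM in KO (0.39 ± 0.12, adjusted p = 0.106). Both were lowest in WT replicate 4 and highest in KO replicate 4. Psme2b, the copy of Psme2, lay between 9.51 and 9.97 CPM in WT and between 7.42 and 10.1 CPM in KO; no source used here states how reads matching both copies were counted, so its level is uncertain.

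**Figure D3:**
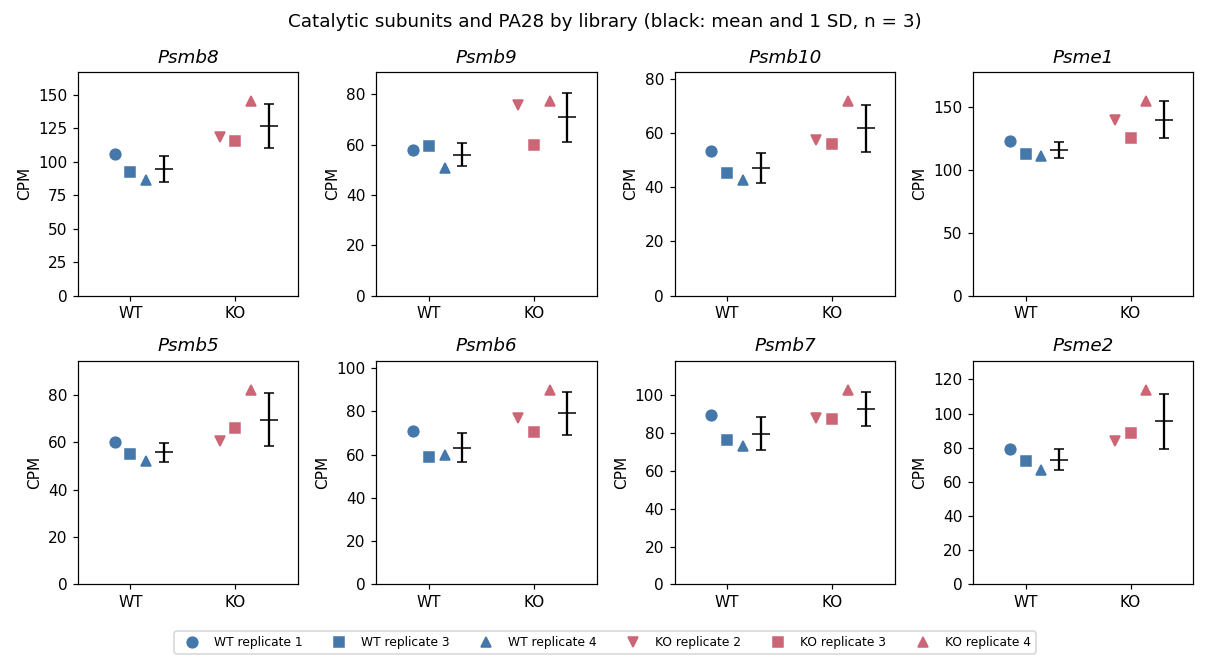
Level in CPM (vertical axes, from 0) of the immunosubunit genes and PA28 genes (Psmb8, Psmb9, Psmb10, Psme1 and Psme2) and of the constitutive catalytic genes (Psmb5, Psmb6 and Psmb7) in each library; black bars give the mean and SD of 3 libraries. KO replicate 4 is the highest library in each of the 8 panels, and WT replicate 1 is the highest WT library in all panels but that of Psmb9.

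The question of the immunoproteasome against the constitutive proteasome was taken within each library, as the level of an immunosubunit gene over that of the gene it replaces, per kb of the principal transcript. Psmb8 was at 0.967, 0.926 and 0.912 times the per-kb level of Psmb5 in WT and at 1.08, 0.963 and 0.975 times in KO. Psmb9 was at 0.481, 0.596 and 0.4997 times that of Psmb6 in WT and at 0.581, 0.499 and 0.507 times in KO. Psmb10 was at 0.528, 0.526 and 0.517 times that of Psmb7 in WT and at 0.580, 0.570 and 0.618 times in KO. The groups overlapped in the first 2 pairs and did not overlap in the third.

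On the scale of log2(CPM + 0.5) the mean of the 3 pair differences (immuno minus constitutive) was -0.06 ± 0.05 in WT and 0.04 ± 0.07 in KO (SD, n = 3 each). The KO mean was 0.09 above the WT mean, and the groups overlapped, with WT replicate 3 above KO replicate 3. From the fitted log2 fold changes the difference was 0.096 with DESeq2 size factors in place of TMM scaling, and 0.06 without KO replicate 2. The difference between groups was 0.10 for Psmb8 minus Psmb5, 0.01 for Psmb9 minus Psmb6 and 0.17 for Psmb10 minus Psmb7. The larger median change of the immunoproteasome group (0.39, against 0.24 for the 31 constitutive subunits) therefore corresponded to a small difference between exchangeable catalytic subunits that did not separate the libraries. It was given no p-value, because the members were chosen with earlier results known.

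**Figure D4:**
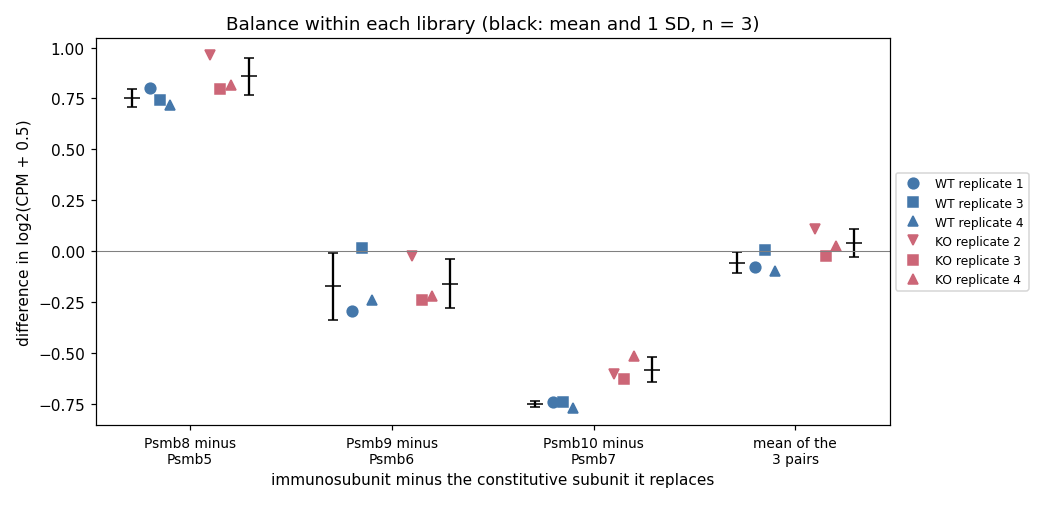
Difference in log2(CPM + 0.5) between each immunosubunit gene and the constitutive gene it replaces, and the mean of the 3 pairs (horizontal axis), in each library; black bars give the mean and SD of 3 libraries. WT and KO overlap for Psmb8 minus Psmb5, for Psmb9 minus Psmb6 and for the mean, and lie apart for Psmb10 minus Psmb7 (means -0.75 and -0.58).

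The 17 genes of the 19S particle had a lower median log2 fold change than the core, 0.15, and the KO libraries lay above the WT libraries for 3 of them, a share near the 14.4% of all genes. Without KO replicate 4 the median was 0.07 and 13 of the 17 were above 0 (50% of all genes). In that fit 0 had an unadjusted p under 0.05 with a higher KO level (6.99% of all genes), against 4 with this library (11.7%). The 6 ATPases of the base, Psmc1 to Psmc6, which unfold the substrate, had a median of 0.18. Psmc4, at their upper end, lay at 75.5, 66.3 and 65.4 CPM in WT and at 76.9, 78.3 and 90.5 CPM in KO (log2 fold change 0.25 ± 0.10, SE, edgeR adjusted p = 0.163). Psmc1, at their lower end, lay at 122, 108 and 108 CPM in WT and at 110, 121 and 136 CPM in KO, with WT replicate 1 above 2 of the KO libraries.

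The other base subunits, the scaffolds Psmd1 and Psmd2 and the ubiquitin receptor Psmd4, had a median of 0.02. Psmd4 lay at 104, 95.9 and 97.8 CPM in WT and at 111, 96.0 and 116 CPM in KO (log2 fold change 0.12 ± 0.09, SE). Psmd1 lay at 136, 124 and 127 CPM in WT and at 113, 130 and 141 CPM in KO (-0.01 ± 0.10). The KO libraries of Psmd1 surrounded the WT libraries, and its 95% interval ran from -0.23 to 0.21.

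The lid, which holds the deubiquitinase Psmd14, had a median of 0.18 over 8 genes. Psmd13, a structural lid subunit at the upper end, lay at 109, 97.7 and 98.0 CPM in WT and at 118, 116 and 136 CPM in KO (log2 fold change 0.28 ± 0.10, SE, edgeR adjusted p = 0.124). Its exons share 342 bases with Sirt3 on the other strand. Psmd12, at the lower end, lay at 72.5, 63.1 and 63.3 CPM in WT and at 61.6, 63.3 and 76.0 CPM in KO (0.02 ± 0.10), and the groups overlapped.

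The core and the 19S particle were compared within each library, a comparison chosen after their values were seen. The mean of the 14 core genes minus that of the 17 base and lid genes on the log2(CPM + 0.5) scale was -0.08, -0.12 and -0.11 in WT and 0.06, 0.00 and 0.10 in KO. The groups did not overlap, and the KO mean was 0.16 above the WT mean. Exon length, taken over all annotated exons of a gene, also differed between core and 19S genes. Its median was 2335 bases in the core, 2820 in the base and lid and 3781 in all tested genes. Over the 49 members the correlation of log2 exon length with the log2 fold change was r = -0.36, and over 16919 tested genes r = -0.13, as descriptions across genes of the same 6 libraries. After removal of the trends on length and GC content from the libraries the medians were 0.30 for the core and 0.20 for the base and lid, against 0.04 for all genes.

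The genes of the caps PA28 gamma and PA200 (Psme3 and Psme4) and of the inhibitor had log2 fold changes below 0. Those of the PA28 cap genes Psme1 and Psme2, given above, were above 0. Psmf1 (chromosome 2, 151715812 to 151744186, minus strand) encodes PI31, known as an inhibitor of the core in the test tube. It lay at 69.7, 57.2 and 67.0 CPM in WT and at 52.2, 50.2 and 51.4 CPM in KO. The means were 64.6 ± 6.59 and 51.3 ± 1.01 CPM (SD, n = 3 each) and the log2 fold change was -0.33 ± 0.09 (SE), or 0.794-fold, with a 95% interval from -0.54 to -0.13 (edgeR adjusted p = 0.0811, range over 16 alternatives 0.0342 to 0.252). The 3 KO libraries lay within a narrow range below every WT library.

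Psme4 (chromosome 11, 30771726 to 30880361, plus strand) encodes PA200, a cap found in nuclei and known for histone breakdown in germ cells. It lay at 123, 130 and 133 CPM in WT and at 95.5, 122 and 105 CPM in KO (log2 fold change -0.26 ± 0.10, SE, edgeR adjusted p = 0.172). Psme3, which encodes the nuclear PA28 gamma cap, lay at 318, 222 and 266 CPM in WT and at 251, 225 and 225 CPM in KO (-0.20 ± 0.13, adjusted p = 0.376). The KO libraries of Psme3 were inside the WT range, and those of Psme4 were below it. The mean of Psme3, Psme4 and Psmf1, a grouping made after their direction was seen, lay at 0.10, -0.14 and 0.03 in WT and at -0.27, -0.22 and -0.28 in KO, relative to the WT mean. KO replicate 4, the highest library for most subunits, was the lowest here.

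The chaperones that build the proteasome were present at lower levels per kb than the subunits: 14.7 to 19.4 CPM per kb for the 4 genes of the core chaperones Psmg1 to Psmg4, against 38.4 to 149 CPM per kb for the 14 core genes. These chaperones pair alpha subunits into a ring, and their median log2 fold change was 0.34. Psmg4 lay at 10.4, 8.76 and 7.25 CPM in WT and at 10.01, 11.4 and 13.1 CPM in KO (0.39 ± 0.16, SE, edgeR adjusted p = 0.190). Psmg2 lay at 22.8, 19.2 and 18.2 CPM in WT and at 20.7, 19.8 and 22.3 CPM in KO (0.06 ± 0.11), and both genes overlapped between groups.
The 3 chaperones of the 19S base had a median of 0.11. Psmd10, which encodes gankyrin, lay at 27.8, 26.9 and 26.9 CPM in WT and at 28.2, 29.2 and 33.3 CPM in KO (0.15 ± 0.09). Psmd9 lay at 34.2, 27.7 and 36.0 CPM in WT and at 35.0, 29.3 and 33.7 CPM in KO (0.00 ± 0.12), and it shares 1849 exon bases with the long noncoding RNA Gm26745 on the other strand.

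Subunits and bound factors without a Psm symbol were read from a separate list, of which 9 genes were measured and 1 passed the test. Sem1, a small lid subunit also bound by other complexes, rose in KO: it lay at 146, 151 and 142 CPM in WT and at 203, 198 and 273 CPM in KO (log2 fold change 0.62 ± 0.13, SE, edgeR adjusted p = 0.0455, range over 16 alternatives 0.000124 to 0.149). The call was lost without WT replicate 1, 3 or 4, without KO replicate 4 and with Xist as a covariate. Pomp, the maturation factor of the core, named after its values were seen, lay at 76.0, 68.9 and 70.1 CPM in WT and at 88.1, 86.7 and 106 CPM in KO (0.39 ± 0.10, adjusted p = 0.0710, range 0.0144 to 0.234). The groups of libraries did not overlap for either gene, as for 10 of the 14 core genes and, with KO above WT, for 14.4% of all genes.

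Of 4 regulators of proteasome genes, which include the transcription factors NRF1 (Nfe2l1) and NRF2 (Nfe2l2), 0 passed the test. Ngly1, which encodes the enzyme that trims sugars from NRF1, had a log2 fold change of 0.10 ± 0.08 (SE), and Nfe2l2 one of 0.10 ± 0.09. Of 15 genes of ubiquitin and substrate delivery 0 passed, with a median of 0.01. Rps27a, a fusion of ubiquitin and a ribosomal protein, showed a difference (log2) of 0.46 ± 0.14 (adjusted p = 0.0939), and Zfand5, a proteasome-binding zinc finger protein, one of -0.25 ± 0.09 (adjusted p = 0.140).
Of 6 inducers of the immunoproteasome 0 passed, with a median of -0.08. Nlrc5, the activator of MHC class I genes, lay at 45.0, 45.1 and 42.8 CPM in WT and at 36.2, 37.1 and 36.8 CPM in KO (-0.27 ± 0.08, adjusted p = 0.0864). Its KO libraries were all below the WT libraries (14.7% of all genes), and its part in the levels of the immunosubunit genes was not tested. Stat2, which carries the type I interferon signal, showed a log2 difference of -0.18 ± 0.08 (adjusted p = 0.219). Of 5 genes of peptide loading 0 passed: B2m, the light chain of MHC class I, showed a log2 difference of 0.34 ± 0.13 (adjusted p = 0.165) and Tapbp, the loading chaperone tapasin, one of 0.11 ± 0.10 (adjusted p = 0.517).

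Promoters were searched because core and immunoproteasome genes lay to the same side. RefSeq promoter windows (GRCm38.p6, 250 bases before to 50 after the start) were matched for 42 of the 50 members. Windows were read on both strands for the core of the antioxidant response element (TGACNNNGC), the element bound by NRF1 and NRF2, and for the core of the interferon-stimulated response element (GAAA, any 2 bases, then GAAA). The first was in 6 of the 42, Psmb5, Psmb6, Psmc6, Psmd12, Psmd9 and Psme4, and in 13.99% of all genes (12.4% of windows). The second was in 5 of the 42, Psmb3, Psmd4, Psmd9, Psme1 and Psmg4, and in 3.99% of all genes (3.44% of all windows). Members with the first motif had a median log2 fold change of 0.11 and matched members without it one of 0.25; for the second the medians were 0.28 and 0.23. A match describes letters in the window and is not a site in use.

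Shown are 4 of these windows, each 5′ to 3′ on the strand of the gene with the motif in capitals: those of the constitutive catalytic genes Psmb5 and Psmb6 with the antioxidant core, and those of Psmb3, the member with the smallest adjusted p, and Psme1, the immunoproteasome gene with the interferon core. In Psmb5 (chr14:54617946-54618245, minus strand) the match begins 47 bases before the start, and in Psmb6 (chr11:70525107-70525406, plus strand) 9 bases before it. In Psmb3 (chr11:97703184-97703483, plus strand) the match is on the opposite strand 163 bases before the start, and in Psme1 (chr14:55578244-55578543, plus strand) on the opposite strand 9 bases after it.
Psmb3: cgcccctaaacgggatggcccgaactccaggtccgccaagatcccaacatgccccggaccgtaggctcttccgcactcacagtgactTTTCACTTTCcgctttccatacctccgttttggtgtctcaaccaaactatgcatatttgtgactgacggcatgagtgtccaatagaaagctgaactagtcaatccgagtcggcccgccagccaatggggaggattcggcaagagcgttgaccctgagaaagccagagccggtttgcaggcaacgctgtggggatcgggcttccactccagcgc
Psmb5: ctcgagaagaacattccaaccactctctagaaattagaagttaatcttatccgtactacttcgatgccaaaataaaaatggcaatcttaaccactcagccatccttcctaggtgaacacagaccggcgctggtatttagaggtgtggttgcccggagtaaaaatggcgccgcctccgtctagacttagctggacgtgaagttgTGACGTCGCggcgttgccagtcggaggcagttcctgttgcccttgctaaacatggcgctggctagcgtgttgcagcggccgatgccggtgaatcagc
Psmb6: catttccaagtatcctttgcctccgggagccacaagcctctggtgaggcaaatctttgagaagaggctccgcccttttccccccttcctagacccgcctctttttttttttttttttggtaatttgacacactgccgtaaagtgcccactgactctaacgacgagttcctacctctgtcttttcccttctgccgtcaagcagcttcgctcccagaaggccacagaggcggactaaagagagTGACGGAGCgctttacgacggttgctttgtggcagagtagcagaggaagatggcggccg
Psme1: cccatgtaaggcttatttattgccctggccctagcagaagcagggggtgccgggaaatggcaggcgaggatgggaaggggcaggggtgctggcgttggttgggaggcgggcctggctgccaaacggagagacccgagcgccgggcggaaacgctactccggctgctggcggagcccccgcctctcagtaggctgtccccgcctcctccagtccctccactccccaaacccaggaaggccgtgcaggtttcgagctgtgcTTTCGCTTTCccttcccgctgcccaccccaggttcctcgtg

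The seed matches of miR-181 were counted in annotated 3′ UTRs (GENCODE M21, GRCm38). A match of 8 or 7 bases (8mer or 7mer) was found in 5 of 49 tested members, or 10.2%, and in 23.1% of 13698 tested genes with an annotated 3′ UTR. The members' 3′ UTRs were short, with a median of 294 bases against 1153. Psma2, Psma3, Psmb1 and Psmb4 had 7mers only, and their log2 fold changes lay between 0.26 and 0.34, inside the range of the core genes without a match. Psmf1 was the member with an 8mer and also the member with the lowest log2 fold change (-0.33), that is with lower levels where the microRNA locus was deleted. Its annotated 3′ UTR has 2822 bases, far above the median of the members. Over all tested genes the median log2 fold change was -0.075 with an 8mer, -0.046 with a 7mer, -0.026 with a match of 6 bases and 0.032 with none. A direct effect of miR-181 on Psmf1 was not tested. The 3 matches of Psmf1 are shown 5′ to 3′ with the seed match in capitals, the 8mer first, because they are the longest and most numerous of any member. The matched bases lie at chr2:151716279-151716286, chr2:151717128-151717134 and chr2:151718618-151718624, minus strand.
Psmf1 8mer: tttaagtcatTGAATGTAtctggaatgg
Psmf1 7mer, far from the stop codon: ataggtttggGAATGTAgataacttgg
Psmf1 7mer, near the stop codon: aggcctcaaGAATGTAacagctcagc

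Markers of several marrow cell types also differed between the groups of libraries. In these bulk samples fewer cells of a type and less RNA per cell cannot be told apart. Of 10 late neutrophil markers 2 rose in edgeR, S100a8 and Camp, and DESeq2 called 9 higher. The summed level of the list was 40994 to 53153 CPM in WT and 61471 to 75682 CPM in KO, highest in KO replicate 4. Of 6 markers of granule-forming neutrophil precursors 3 rose in edgeR and 6 in DESeq2 (4583 to 4873 CPM in WT, 5727 to 6847 CPM in KO), again with the highest sum in KO replicate 4. Of 10 erythroid markers 3 fell in edgeR and 5 in DESeq2 (5329 to 7693 CPM in WT, 4016 to 4812 CPM in KO), with the lowest sum in KO replicate 4. Of 6 plasma cell markers 1 rose in edgeR (Xbp1) and 2 in DESeq2 (Xbp1 and Jchain), with sums of 320 to 451 CPM in WT and 577 to 634 CPM in KO. Most of these sums came from Jchain (means 189 CPM in WT and 352 CPM in KO) and Xbp1 (146 and 214 CPM). The other 4 markers overlapped between groups, Irf4 lay at a log2 fold change of -0.99, and the median of the list was 0.06.

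For B cells the sums overlapped (311 to 493 CPM in WT, 129 to 381 CPM in KO), and of 10 markers 0 passed in edgeR while DESeq2 called 2 lower. With WT replicate 1, WT replicate 4 or KO replicate 4 left out, 0 markers of the neutrophil, erythroid, plasma cell and B cell lists passed in edgeR, while without KO replicate 2 the B cell list had 7 lower. The sums of 8 T and NK cell markers were 100 to 122 CPM in WT and 126 to 148 CPM in KO, and 0 passed in edgeR. Of these sums Nkg7 took 65.9, 65.1 and 57.0 CPM in WT and 75.2, 81.9 and 99.2 CPM in KO. DESeq2 called Nkg7 alone, as higher. For the other 7 markers the groups overlapped, and of all 8 markers 4 lay above 0 and 4 below (median log2 fold change 0.03). The sums overlapped for monocytes (1697 to 2086 CPM in WT, 1967 to 2431 CPM in KO), macrophages (292 to 320 and 292 to 369 CPM) and megakaryocytes (266 to 418 and 263 to 522 CPM). Of 7 monocyte markers 3 lay above 0 and 4 below (median log2 fold change -0.03), and DESeq2 called 1 higher and 2 lower. In edgeR Ly6c2 alone passed, higher in KO (0.50, edgeR adjusted p = 0.0474, passed in 1 of the 6 fits that left out a library). Of 8 macrophage markers 5 lay above 0 and 3 below (median 0.17), and DESeq2 called 0 higher and 2 lower. In edgeR Siglec1 alone passed, lower in KO (-1.05, adjusted p = 0.0103), also with each library left out in turn. No marker of the lists in these paragraphs was at 0 in any library, and the part of cell makeup in the proteasome gene levels was not tested.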

How the data were processed

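The authors deposited raw read counts per gene (whole-number counts, poly(A) libraries). Per the submitters' processing notes they used Trimmomatic 0.36, STAR 2.5.2b, featureCounts and Subread 1.5.2 with GRCm38; which annotation and strand setting they used, and how they treated multi-mapping reads, is not given in the sources used. Samples were grouped by the genotype in the labels. Identifiers were matched to GENCODE M21, and 49056 of 49315 had a symbol; rows without one held 0.0171% of counts.

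Counts were tested with edgeR 4.0.16 (R 4.3.3): TMM scaling, filterByExpr, robust quasi-likelihood test, two-sided, Benjamini-Hochberg adjustment over all tested genes, threshold 0.05. Log2 fold changes are KO minus WT, and CPM use the TMM-scaled library total. Library scores use log2(CPM + 0.5); no test was made of a list or score. Members and lists were chosen with earlier results of these data known. Per-library values are given for the immunoproteasome genes, Psmb5 to Psmb7, and the members with the largest and smallest log2 fold change of each role; of each related list, genes past the threshold or else those with the smallest p are named. Alternatives were other scalings and filters, leaving out each library, DESeq2 1.42.0, limma 3.58.1, removal of abundant gene classes or of length and GC trends, Xist above 1 CPM as a covariate and the replicate number as a block. The procedure was run on simulated counts whose set changes were larger than the change of any member, so the calling of changes this small was not tested. The floor of 3 counts covers counting error only.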

Additional observations from a re-analysis of the deposited data

How the results depend on the processing

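The number of proteasome genes called higher was 0, but 7 without a filter on low counts, 6 with DESeq2 and 1 with limma, and between 0 and 2 when each library was left out in turn; the number called lower was 0, but 1 without the filter and 1 with DESeq2. The cause was not tested. Over all genes the number called was 417, and 1492 without the filter, 1641 with DESeq2, 786 with limma, 209 with the Xist covariate and between 32 (without KO replicate 4) and 920 (without KO replicate 3) with a library left out. Of the calls over all genes 38.1% were higher in KO, against 17.8% with library totals only, 52.2% with DESeq2 and 50% with the length and GC trends removed. The medians of the members, the immunoproteasome and the constitutive subunits stayed above 0 under the 16 alternatives.

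Of 26 members given per library, 22 kept the sign of their log2 fold change under the 16 alternatives and 4 near 0 did not; the cause was not tested. With library totals only Psmd12 was at -0.059, Psmd9 at -0.073 and Psmg2 at -0.014. Psmd9 was at -0.0060 without the filter, -0.017 with a stricter filter (mean log2 CPM at least 1) and -0.048 with limma. Psmd12 was at -0.0026 with the stricter filter and -0.047 with the Xist covariate, and Psmd1 was at 0.096 with length and GC trends removed. With a library left out Psmd12 lay between -0.081 and 0.084, Psmd9 between -0.10 and 0.083, Psmg2 between -0.0085 and 0.16 and Psmd1 between -0.082 and 0.074.

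Replicate numbers 3 and 4 occur in both groups, and deviations of same-numbered libraries correlated at 0.274 and -0.233. Those of differently numbered libraries correlated at between -0.276 and 0.244. With 3 libraries per group these correlations cannot decide whether the numbers pair the samples. WT replicate 1 and KO replicate 2 have no library of the same number in the other group. With the replicate number as a block these libraries do not inform the difference, which then rests on replicates 3 and 4. In that fit 0 members were called, their median was 0.34 and 571 genes were called in all. The difference between immuno and constitutive catalytic subunits was 0.049 (0.095 without the block), Psmd1 was at 0.11 and Psmd9 at -0.0096.

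A count of 0 allows at most 0.0743 to 0.0886 CPM, which bounds Psmb11; Psma8, under 2 CPM in every library, was not tested with the stricter filter and is the least precise member (SE 0.24).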
